A study of Mus musculus with 12 samples.

Results

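Clps, Pnliprp1, Pnliprp2 and Pla2g2f are 4 genes that encode colipase, pancreatic-type lipases and a secreted phospholipase. They were taken as the probe sets annotated to these symbols, which gave 7 probe sets of the 28898 that name 1 gene, and 4 genes of the 17097 measured. The members were chosen by their measured log2 differences between Mex3a gates in Lgr5 High cells, so values from those arrays and contrasts are described here without a test. Pancreatic-type lipases split dietary triglycerides in the gut lumen, and bile salts, which coat the fat droplets, displace them from the surface unless colipase anchors them there. Secreted phospholipases A2 cut a fatty acid from phospholipids outside cells. In the crypts of the small intestine Paneth cells are the classic source of such an enzyme beside their antimicrobial peptides. The enzyme meant is the group IIA form, Pla2g2a, not Pla2g2f, and Pla2g2a was not among the genes analysed here. The exocrine pancreas is the best known site of colipase and of the pancreatic-type lipases.

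The study sorted the mouse small intestine into 6 populations named by Mex3a (High, Low or Neg) and Lgr5 (High or Low), and profiled each on 1 array from each of 2 biological replicates, MR793 and MR820 (12 arrays, n = 2 per population, a number that limits precision). The protein of Mex3a binds RNA, and that of Lgr5 is a receptor known as a mark of crypt base stem cells. The cells were primary and untreated, and each sample held 2000 of them, amplified over 22 cycles. The mouse strain, alleles, age, sort markers and the number of animals behind a replicate were not given in the sources used here, so p-values measure the spread between these samples. Both Lgr5 probe sets separated the Lgr5 gates (9.00 to 10.21 on log2 RMA against 6.37 to 8.05 in the brighter set), whereas the Mex3a probe sets lay at 5.01 to 6.37 on the arrays and did not order the Mex3a gates in both replicates, whose names are therefore those of the labels. One array, Mex3a High Lgr5 High from MR793, differed from the rest: over all genes it correlated with them at 0.892 to 0.914, whereas the other 11 correlated among themselves at 0.966 to 0.996. In bulk samples of this kind, fewer cells of a type and less RNA per cell cannot be told apart.

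The 250 bases before the start site are shown because Pnliprp1 and Pnliprp2 are neighbouring relatives with unlike levels in these cells, while Pla2g2f, on another chromosome, shares the Mex3a order of Pnliprp2. The sequences are RefSeq windows of GRCm38.p6, written 5′ to 3′ along the gene, and 3 of the 4 members had one; Clps is named only. Capitals mark exact matches, on either strand, to CCCACC, to the TATA box letters TATAAA, to the TCF-type letters CTTTGAT, to the GATA-type letters AGATAA, to TGGGAA or to the octamer letters ATGCAAAT, motifs chosen partly after reading the sequences.
Pnliprp1, chr19:58728637-58728886, plus strand: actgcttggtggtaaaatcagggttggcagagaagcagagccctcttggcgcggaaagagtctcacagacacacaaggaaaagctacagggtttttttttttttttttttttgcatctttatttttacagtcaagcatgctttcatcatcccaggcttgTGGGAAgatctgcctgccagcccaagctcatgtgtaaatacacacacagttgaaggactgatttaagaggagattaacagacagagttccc
Pnliprp2, chr19:58759473-58759722, plus strand: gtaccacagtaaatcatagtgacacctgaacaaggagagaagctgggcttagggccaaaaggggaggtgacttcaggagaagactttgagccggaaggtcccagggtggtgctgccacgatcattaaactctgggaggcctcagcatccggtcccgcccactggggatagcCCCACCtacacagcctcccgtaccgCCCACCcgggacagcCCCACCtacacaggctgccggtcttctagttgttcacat
Pla2g2f, chr4:138757599-138757848, minus strand: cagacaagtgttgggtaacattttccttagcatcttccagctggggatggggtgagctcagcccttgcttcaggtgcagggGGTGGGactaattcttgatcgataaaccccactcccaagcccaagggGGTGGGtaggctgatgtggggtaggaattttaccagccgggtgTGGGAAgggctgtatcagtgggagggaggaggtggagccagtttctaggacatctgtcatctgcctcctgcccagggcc

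In the Pnliprp2 window CCCACC occurred 3 times, starting at bases -79, -54 and -39 (base -1 lies just before the start site), and 1.78% of the 32851 windows of this length held as many or more. A 16-base stretch, agccccacctacacag, stood there as 2 copies, starting at -82 and -42. The Pla2g2f window held CCCACC 2 times, at -169 and -122, on the opposite strand, which 7.31% of windows matched or exceeded, and the Pnliprp1 window did not hold it; 28.6% of all windows held at least 1 match. The E-box letters CANNTG, left in lower case and free to overlap the others, occurred 5 times before Pla2g2f, a number that 1.15% of windows reached, 2 times before Pnliprp1 and 1 time before Pnliprp2, against 66.2% of windows with any. TGGGAA stood 1 time each before Pnliprp1 and Pla2g2f (21.6% of windows), and the TATA box letters (12.4% of windows), the TCF-type (3.21%), GATA-type (9.99%) and octamer letters (1.6%) were in none of the 3. GC content was 43.6% before Pnliprp1, 58.4% before Pnliprp2 and 56.8% before Pla2g2f, with a median of 52.4% over all windows. These matches are descriptions of letters, not binding sites.

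Colipase RNA was high in cells of the small intestine and stepped with the Mex3a gate. Clps lies on chromosome 17 and encodes the cofactor that holds pancreatic lipase on fat droplets; its log2 RMA level, which is on a scale where 1 unit is a doubling of signal, placed it at the 72.1 to 99.6 percentile of the genes on an array (median 96). In Lgr5 Low cells its level in MR793 and MR820 was 12.26 and 10.92 in Mex3a High, 10.25 and 9.62 in Mex3a Low, and 8.20 and 7.45 in Mex3a Neg cells. In Lgr5 High cells it was 12.12 and 11.17, 11.29 and 10.64, and 9.47 and 9.14 in the same order. The Mex3a order High over Low over Neg held in both replicates of both Lgr5 gates, and the ranges of the 3 Mex3a gates did not overlap in Lgr5 Low cells; in Lgr5 High cells the Mex3a High and Low ranges did. MR793 was the higher replicate in 6 of 6 populations, by 0.32 to 1.34 (median 0.69). The second Clps probe set followed the first (r = 0.996 over 12 arrays).

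Pnliprp2 rose and fell with Clps. It encodes pancreatic lipase-related protein 2, a lipase that also cleaves galactolipids and phospholipids, and lies on chromosome 19 directly after Pnliprp1 in the order Pnlip, Pnliprp1, Pnliprp2, with 0 other protein-coding genes between neighbours; Pnlip, the classic pancreatic lipase, was not analysed here. Its level in Lgr5 Low cells was 10.43 and 9.32 in Mex3a High, 8.44 and 7.47 in Mex3a Low, and 5.59 and 5.56 in Mex3a Neg cells. In Lgr5 High cells it was 10.43 and 9.56, 9.73 and 9.06, and 7.83 and 7.39. The ranges of the 3 Mex3a gates were separate in Lgr5 Low cells, and in the Mex3a Neg Lgr5 Low arrays Pnliprp2 was below the middle of the array, at a 44.4 percentile at its lowest. MR793 was higher in 6 of 6 populations, by 0.03 to 1.11. The probe set used is of a kind that can match other sequences; the other set read lower (5.13 to 8.47) with the same Mex3a order in all 4 series of arrays (r = 0.948).

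Pla2g2f stepped with Mex3a too, but its highest level was in Lgr5 Low cells. It lies on chromosome 4 and encodes the group IIF secreted phospholipase A2. In Lgr5 Low cells its level was 10.07 and 9.85 in Mex3a High, 8.11 and 7.85 in Mex3a Low, and 6.27 and 6.22 in Mex3a Neg cells, with no overlap between gates. In Lgr5 High cells it was 7.37 and 8.23, 7.41 and 7.19, and 5.95 and 6.41, so that the Mex3a High and Low ranges overlapped and the MR793 array set apart above lay just under its Mex3a Low partner. The second probe set gave the opposite order of replicates in Mex3a High Lgr5 High cells (8.49 and 7.41), and there the order High over Low over Neg held in all 4 series; the probe sets therefore disagree on this population (r = 0.89 over 12 arrays).

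Pnliprp1 stayed low everywhere. It encodes pancreatic lipase-related protein 1, a relative with little known lipase activity. Its level was 5.04 and 5.08 in Mex3a High, 5.22 and 5.02 in Mex3a Low, and 4.96 and 4.78 in Mex3a Neg cells with Lgr5 Low. With Lgr5 High it was 5.90 and 5.07, 5.03 and 5.11, and 5.00 and 5.02. The 5.90 came from the array that stands apart; the gene lay at the 24.1 to 46.5 percentile and showed the Mex3a order in 2 of 4 series, and RMA compresses differences between dim probe sets.

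**Figure D1:**
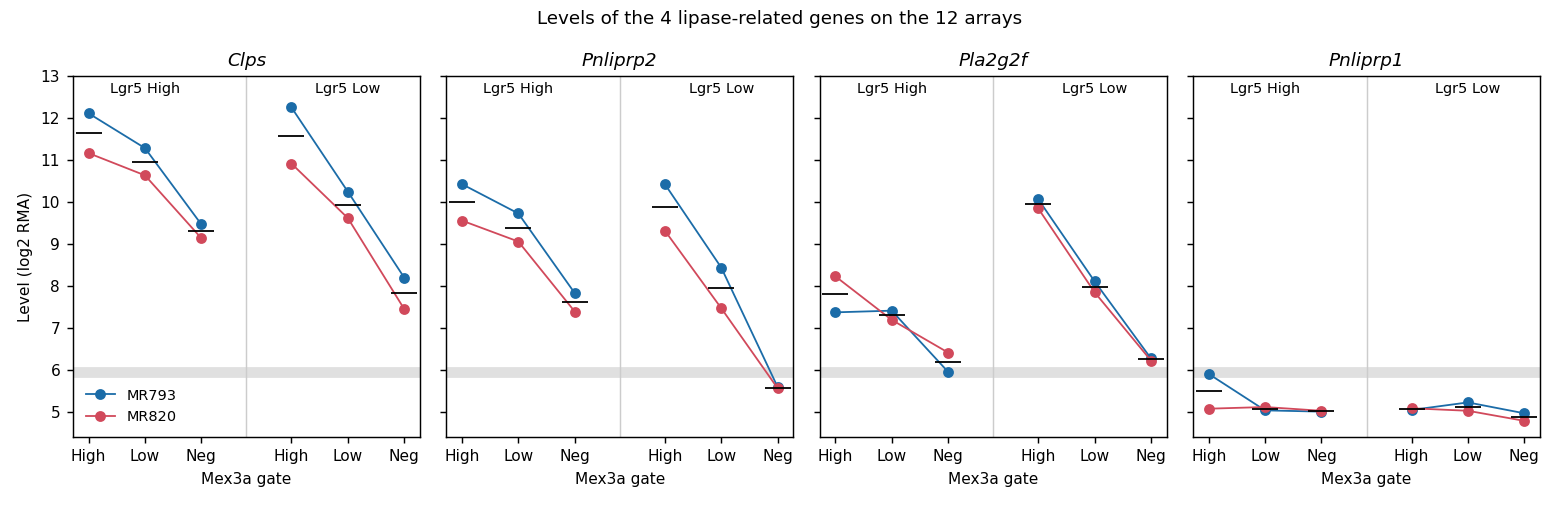
Log2 RMA level of each member (y axis) in the 6 populations (x axis), with 1 point per array, lines joining the Mex3a gates of a replicate within an Lgr5 gate, a black dash for the mean of 2 arrays and a grey band for the range of array medians. Clps and Pnliprp2 step down from Mex3a High to Neg in both Lgr5 gates, Pla2g2f peaks at 10.07 and 9.85 in Mex3a High Lgr5 Low cells, and Pnliprp1 lies in or below the grey band.

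The Mex3a differences in the Lgr5 Low arrays were tested with limma, adjusted over all 17097 genes. The members were proposed with earlier results of these data known. These arrays also come from the same 2 biological replicates as the Lgr5 High arrays used for the choice, and the fit takes its spread from all 12 arrays. The adjusted p-values are therefore not independent of that choice. Between Mex3a High and Neg cells, 3 of the 4 members rose, where 1.73% of all genes were called (1.71% as higher). Pnliprp2 was 19.7-fold higher, a log2 difference of 4.30 ± 0.47 (SE; 4.84 in MR793 and 3.76 in MR820; 95% interval 3.25 to 5.34; adjusted p = 0.000957). Clps was 13.6-fold higher, at 3.77 ± 0.49 (4.07 and 3.47; 2.67 to 4.87; adjusted p = 0.00282), and Pla2g2f 13.2-fold, at 3.72 ± 0.29 (3.80 and 3.64; 3.06 to 4.38; adjusted p = 0.000139). Among all genes these were the differences of place 23, 39 and 40 from the top. Pnliprp1 differed by 0.19 ± 0.22 (0.08 and 0.29; adjusted p = 1), with an interval of -0.32 to 0.69. The other probe sets, tested over every single-gene set, gave 4.03 for Clps (adjusted p = 0.0012), 2.50 for Pnliprp2 (0.0461) and 2.47 for Pla2g2f (0.00414). Of the replicates, MR793 has all 3 Lgr5 Low arrays on 1 strip (the array strip of the labels), so its differences are within a strip; the Mex3a Neg array of MR820 is on another strip than its Mex3a High and Low arrays.

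Between Mex3a High and Low cells of the Lgr5 Low gate 1 of the 4 members was called, where 0.889% of all genes were. Pla2g2f rose by 1.98 ± 0.29 (1.96 and 2.00; adjusted p = 0.0138), and this call was lost when any 1 of the 4 arrays compared was left out (adjusted p = 0.0629 to 0.203). Pnliprp2 differed by 1.92 ± 0.47 (1.99 and 1.85; adjusted p = 0.16) and Clps by 1.66 ± 0.49 (2.02 and 1.30; adjusted p = 0.355). Both arrays of a replicate were on 1 strip here. Pairing the populations by biological replicate takes up the mean offset between the replicates, and with that replicate block all 3 were called, with adjusted p = 0.0124 for Pnliprp2, 0.0117 for Clps and 0.0194 for Pla2g2f. The offset of MR793 varied between populations, from 0.32 to 1.34 for Clps, 0.03 to 1.11 for Pnliprp2 and -0.87 to 0.26 for Pla2g2f. Pnliprp1 differed by -0.06 (interval -0.57 to 0.44; adjusted p = 1).

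Between Mex3a Low and Neg cells, 0 of 4 members were called by limma, where 0.0468% of all genes were; 3 of the 4 had an unadjusted p under 0.05. The differences were 2.38 ± 0.47 for Pnliprp2 (2.85 and 1.90; adjusted p = 0.358), 2.11 ± 0.49 for Clps (2.05 and 2.17; adjusted p = 0.692), 1.74 ± 0.29 for Pla2g2f (1.84 and 1.64; adjusted p = 0.221) and 0.25 ± 0.22 for Pnliprp1 (adjusted p = 1). With the replicate block, 2 of 4 were called, Clps and Pnliprp2 at an adjusted p = 0.0236 each, and Pla2g2f stayed at 0.265. The other probe sets gave 2.47 for Clps (adjusted p = 0.424), but only 0.83 for Pnliprp2 (1.07 and 0.58) and 0.69 for Pla2g2f (0.70 and 0.68), both at an adjusted p = 1 over every single-gene set, and the block was not run on them. The full order High over Low over Neg held in both Lgr5 Low replicates for Clps, Pnliprp2 and Pla2g2f, against 7.49% of all genes.

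In Lgr5 High cells the mean differences of Clps, Pnliprp2 and Pla2g2f were smaller, values that chose the members and are given without a test. For Pnliprp2 the gap rests on the probe set used: the other set gave 2.13 in Lgr5 High against 2.50 in Lgr5 Low cells, a gap of 0.37 (0.64 in MR793 and 0.10 in MR820). For Pla2g2f the gap was 2.10 (2.38 in MR793 and 1.82 in MR820) in the set used. Its other set gave a gap of 0.99 (0.23 and 1.76). In the sets used, Mex3a High exceeded Neg by 2.34 for Clps (2.65 and 2.03), 2.38 for Pnliprp2 (2.60 and 2.17) and 1.62 for Pla2g2f (1.42 and 1.82), and for Pnliprp1 by 0.47, of which the array that stands apart carried 0.90 against 0.04 in MR820. Most of the step for Clps and Pnliprp2 lay between Mex3a Low and Neg (1.66 and 1.78) and less between High and Low (0.68 and 0.60). Across all genes limma called 0 in this contrast, with 661 at an unadjusted p under 0.05. The difference of the Mex3a High against Neg change between the Lgr5 gates was called for 0.398% of genes and was not tested for the members, whose choice used the Lgr5 High arrays of it.

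**Figure D2:**
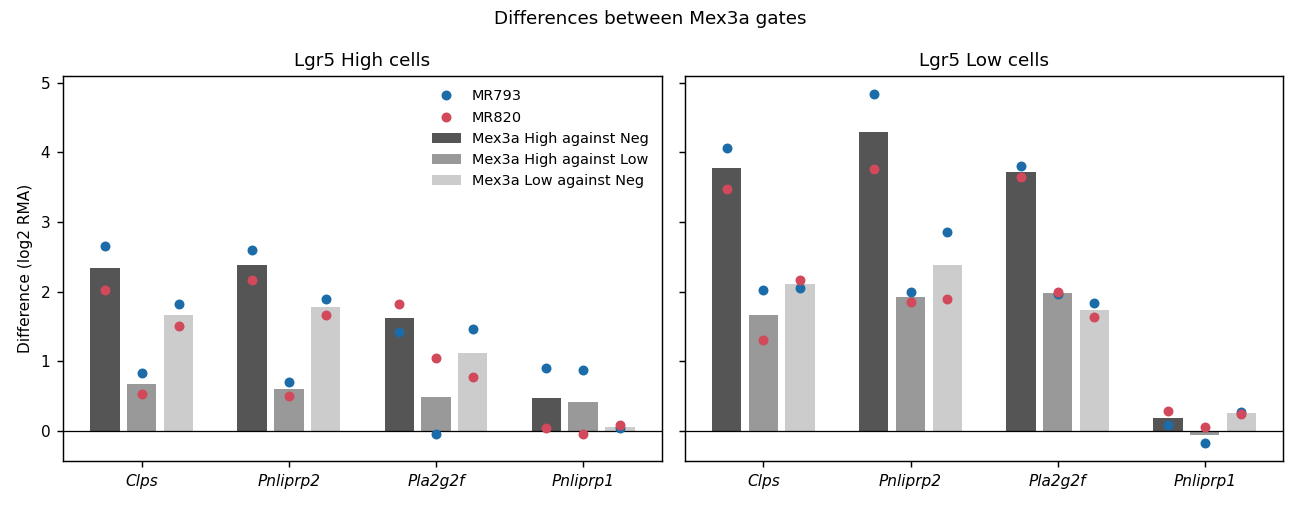
Log2 difference between Mex3a gates (y axis) for each member in Lgr5 Low and Lgr5 High cells, with bars for the mean difference and points for MR793 and MR820. For Clps, Pnliprp2 and Pla2g2f each replicate is above 0 in every comparison of the Lgr5 Low gate, while Pnliprp1 lies between -0.18 and 0.29 there.

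The members split by the Lgr5 gate, a contrast that called 1.38% of all genes (1.13% lower and 0.252% higher in Lgr5 High cells) and that is described here for the members without a test. In MR793 all Lgr5 High arrays were on another strip than the Lgr5 Low arrays, and in MR820 only the Mex3a High pair shared a strip. In the other pairs the Lgr5 gate and the strip cannot be told apart. Clps was level between the Lgr5 gates in Mex3a High cells (Lgr5 High minus Low 0.05; -0.15 in MR793 and 0.25 in MR820), but higher in Lgr5 High cells in the Mex3a Low gate, by 1.03 (1.04 and 1.02), and in the Mex3a Neg gate, by 1.48 (1.27 and 1.69). For Pnliprp2 these differences were 0.12, 1.44 and 2.04, but its other probe set gave 0.08, 1.12 and 0.45 (0.56 and 0.35), so the size in Mex3a Neg cells depends on the set. Pla2g2f ran the other way, with -2.16 in Mex3a High (-2.70 and -1.62), -0.68 in Mex3a Low (-0.70 and -0.66) and -0.06 in Mex3a Neg cells (-0.32 and 0.20), so only in the first 2 gates did both replicates lie on the same side. Its other probe set gave -1.10 (-0.66 and -1.53), -0.14 (-0.21 and -0.07) and -0.10 (-0.43 and 0.23). In the first 2 gates that set had the same direction at a smaller size, and in Mex3a Neg cells its replicates lay on opposite sides. Ordered by mean level, Clps went from 11.65 ± 0.67 (SD, n = 2) in Mex3a High Lgr5 High to 11.59 ± 0.95 in Mex3a High Lgr5 Low and 10.96 ± 0.46 in Mex3a Low Lgr5 High cells, neighbours whose ranges overlapped, and then to 9.93 ± 0.44, 9.30 ± 0.23 and 7.82 ± 0.53, which did not. Pla2g2f went from 9.96 ± 0.15 in Mex3a High Lgr5 Low to 7.98 ± 0.18 in Mex3a Low Lgr5 Low and 7.80 ± 0.61 in Mex3a High Lgr5 High cells, of which the last pair overlapped. The Mex3a Neg populations were lowest for Pla2g2f, at 6.24 ± 0.04 and 6.18 ± 0.33, and overlapped.

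Over the 12 arrays Clps and Pnliprp2 were each other's closest gene among all measured (r = 0.989, and 0.987 over the 11 arrays without the one that stands apart). Pla2g2f had r = 0.695 with Clps and 0.662 with Pnliprp2 (0.783 and 0.738 over the 11 arrays). The arrays share replicates, strips and a set of 6 populations, so these are descriptions. After Pnliprp2, the genes closest to Clps were Rnase1, a pancreatic-type ribonuclease (0.945), Itln1, the lectin intelectin (0.939), Chd6, a chromatin remodeller (0.924), and Slc30a2, a zinc transporter (0.906). For Pnliprp2 they were Itln1 (0.965), Chd6 (0.945), Rnase1 (0.920) and Mmp7, the protease that activates Paneth cell defensins (0.910). These genes were chosen for following the members over the same arrays, so their own differences are given without a test: between Mex3a High and Neg cells of the Lgr5 Low gate they were 2.95 for Itln1, 3.25 for Mmp7, 2.76 for Rnase1, 1.23 for Slc30a2 and 0.86 for Chd6. Like Clps, Itln1 was lowest in Mex3a Neg Lgr5 Low cells, at 9.18 in MR793 and 9.52 in MR820, and at 12.45 and 12.15 in Mex3a High Lgr5 Low cells.

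Pla2g2f kept other company. Its closest genes were Trim3, a ubiquitin ligase (0.967), Gfra3, a receptor of the GDNF family (0.959), Kctd12 (0.957), Kit, a receptor tyrosine kinase (0.956), and Nkx2-2, a transcription factor of enteroendocrine cells (0.955). Their differences in the same contrast, likewise without a test, were 5.28 for Kctd12, 4.36 for Nkx2-2, 3.15 for Gfra3, 2.02 for Kit and 0.74 for Trim3. The genes closest to Pnliprp1, Lrrc38 (0.978), Fezf2 (0.973), Sytl1 (0.967), Brinp1 (0.966) and Ins2 (0.964), all had their highest level on the array that stands apart, and without it r fell to 0.756 to 0.841. With that array 3758 genes had r over 0.8 with Pnliprp1, against 49 with Clps.

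The lists of other lipid-related genes covered lumen lipid digestion, secreted phospholipases A2, intracellular phospholipases and lipid uptake. They held 50 measured genes without the members. Between Mex3a High and Neg cells of the Lgr5 Low gate 3 of the 50 rose, which is 6% against 1.71% of all genes. The median difference of the 50 was -0.03 against -0.01 for all genes. Between High and Low 2 rose, 4% against 0.889%. These shares were not compared by a test. None of the 50 fell in these contrasts and none was called by limma between Mex3a Low and Neg cells, where 1 had an unadjusted p under 0.05. Of the 10 other lumen lipases and partners, 0 were called in Mex3a High against Neg by limma. No gene of the list other than the members had an unadjusted p under 0.05. The smallest p was that of Lmf1, a lipase maturation factor, at 0.50 ± 0.22 (0.61 in MR793 and 0.39 in MR820, adjusted p = 0.752). Lipg, endothelial lipase, followed at -0.93 ± 0.50 (adjusted p = 0.984). Cel, the bile salt-stimulated lipase, was at 0.06 and Lipf, gastric lipase, at -0.02. Between Mex3a High and Low, Lmf1 differed by 0.60 (adjusted p = 0.757). Of the 10 other secreted phospholipases and their receptor, Pla2g2d, a close relative of Pla2g2f, rose by 1.50 ± 0.17 (1.53 and 1.47; adjusted p = 0.0011), with levels of 6.09 and 6.17 in Mex3a High Lgr5 Low cells and no more than 5.39 elsewhere. The secreted forms Pla2g1b (0.06), Pla2g5 (-0.21) and Pla2g10 (-0.20) were not called.

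Among 13 intracellular phospholipases and lipases, 2 rose in that contrast. Mgll, monoglyceride lipase, rose by 1.89 ± 0.34 (2.18 and 1.60; adjusted p = 0.0205), and Plb1, a brush-border phospholipase placed in this list, by 1.23 ± 0.23 (0.86 and 1.60; adjusted p = 0.0236). The Mgll call was lost without any 1 of the 4 arrays compared (adjusted p = 0.0508 to 0.227) or without the MR820 array of Mex3a Neg Lgr5 High (0.0501). The Plb1 call was lost under a strip block (1.12; adjusted p = 0.0627), with strip and replicate blocks together (1.02; 0.264) and without any 1 array (0.0542 to 0.222), apart from both Mex3a High Lgr5 High arrays and the MR793 array of Mex3a High Lgr5 Low. The genes called between Mex3a High and Low were Pla2g2d (1.05; adjusted p = 0.0197) and Plb1 (1.19; adjusted p = 0.048), and both calls were lost without any 1 of the 4 arrays compared (0.0765 to 0.251 and 0.107 to 0.412), and that of Plb1 with the replicate block (0.065). Of 17 genes of lipid uptake and re-esterification 0 were called (limma; 1 had an unadjusted p under 0.05), with a median of -0.25 that had opposite signs in the replicates (-0.62 in MR793 and 0.25 in MR820); the one with the smallest p was Scarb1, a lipoprotein receptor, at 0.46 ± 0.18 (adjusted p = 0.571).

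**Figure D3:**
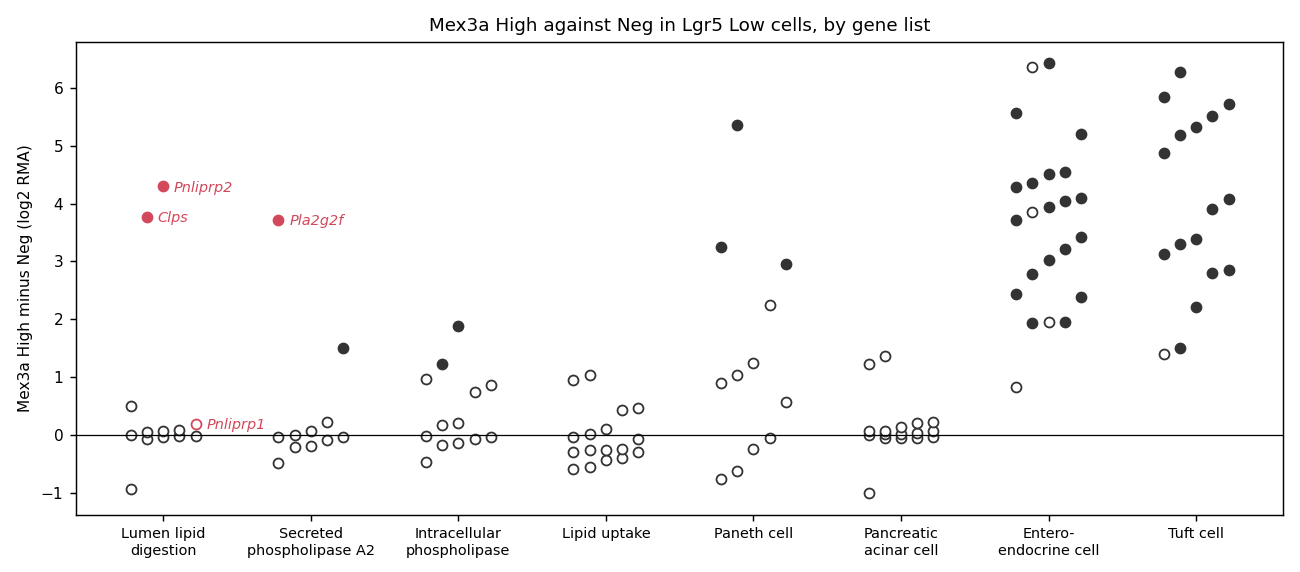
Log2 difference between Mex3a High and Neg cells of the Lgr5 Low gate (y axis) for each measured gene, by list (x axis). The lists shown are the lipid lists and the Paneth, pancreatic acinar, enteroendocrine and tuft cell lists. Points are filled where called and open where not, with the members in red. The lipid lists have medians of -0.25 to 0.17 without the members, whereas the enteroendocrine and tuft lists have medians of 3.85 and 3.91.

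Some markers of other cell types differed along with the members. Of 12 measured Paneth cell markers 3 rose between Mex3a High and Neg cells of the Lgr5 Low gate (limma). The share over all genes was 1.71%. Defa21, a defensin, rose by 5.36 ± 0.62 (adjusted p = 0.00142). The others were Mmp7 and Itln1, which were also among the genes closest to Pnliprp2. That closeness and their calls come from the same arrays and are not separate results. The list median was 0.97, with 8 genes positive and 4 negative. The negative ones, none of them called, were Defa3 at -0.76 ± 0.18 (-0.70 and -0.83; adjusted p = 0.0904), Reg3b at -0.63, Reg3g at -0.25 and Xbp1 at -0.06. The summed log2 level of the 12 was 122.70 and 121.60 in Mex3a High, 117.20 and 116.23 in Mex3a Low, and 105.76 and 106.85 in Mex3a Neg cells. A few genes carried this sum: of the gap of 16.94 between Mex3a High and Neg in MR793, Defa21, Mmp7, Itln1 and Nupr1 made up 17.13 and the other 8 genes -0.18, and of 14.74 in MR820 they made up 10.50 and 4.24. In Lgr5 High cells these sums were 117.23 and 121.75, 116.63 and 118.72, and 109.63 and 113.25, lowest in Mex3a Neg cells. Of these 12 genes 5 had r over 0.8 with Clps and 5 with Pnliprp2, and 0 with Pla2g2f. The median r of the 12 was closer between members, at 0.62 with Clps, 0.53 with Pnliprp2 and 0.54 with Pla2g2f.

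Enteroendocrine markers rose in 19 of 23 and tuft cell markers in 16 of 17 in the same contrast, against 1.71% of all genes. The called tuft genes with the smallest p were Dclk1 (6.27), Avil (4.88), Alox5ap (5.52) and Sh2d6 (5.85). The enteroendocrine sums were 225.81 and 217.29, 191.41 and 162.26, and 138.31 and 135.03 from Mex3a High to Neg in Lgr5 Low cells; the tuft sums were 163.08 and 162.18, 131.77 and 116.48, and 95.04 and 95.57. In Lgr5 High cells 0 genes of either list were called between Mex3a High and Neg by limma, with 7 of 23 and 12 of 17 at an unadjusted p under 0.05. There 22 of 23 enteroendocrine and 17 of 17 tuft markers were positive, with medians of 0.77 and 0.83 against 0.07 for all genes. Their sums from Mex3a High to Neg were 159.40 and 150.96, 137.45 and 135.46, and 133.62 and 136.90 for the enteroendocrine list, and 118.64 and 113.52, 99.84 and 97.20, and 95.18 and 93.31 for the tuft list. With Pla2g2f, 18 of 23 enteroendocrine and 16 of 17 tuft genes had r over 0.8, and 0 of either list had it with Clps. Median r with Clps was still 0.50 for the enteroendocrine and 0.61 for the tuft list, against 0.87 and 0.92 with Pla2g2f. The part of these cell types in the members' differences was not tested.

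Of 17 measured genes of the pancreatic acinar cell, 0 were called in Mex3a High against Neg (limma; 2 had an unadjusted p under 0.05), with a median of 0.04, and their summed level was 104.39 and 104.06 in Mex3a High, and 102.85 and 101.22 in Mex3a Neg cells of the Lgr5 Low gate. The smallest p values were those of Bhlha15, a transcription factor of secretory cells, at 1.23 ± 0.31 (adjusted p = 0.117), and Spink1, a trypsin inhibitor, at 1.36 ± 0.51 (0.514). The list's median r was 0.39 with Clps and 0.38 with Pnliprp2, against 0.16 and 0.15 over all genes, and Bhlha15 had the highest, 0.81 and 0.78. Without the array that stands apart the list's medians were 0.18 and 0.26, against -0.03 and -0.01 over all genes. The Paneth, enteroendocrine and tuft lists had higher medians with both members over all arrays. Of the 17 genes 10 had a median percentile under 50 on the arrays, and the rest reached up to 98.5, for Zg16. Among digestive enzymes of the list, named after their values were seen, Amy2a5, an amylase, was at 4.30 to 4.59, Cpb1, a carboxypeptidase, at 4.35 to 4.94, Prss1, a trypsinogen, at 4.59 to 5.23 and Cpa1, another carboxypeptidase, at 6.27 to 6.94. Goblet (15 measured), enterocyte (20) and intestinal stem cell markers (15) had 0 calls in this contrast by limma. Of these lists 2, 0 and 3 genes had an unadjusted p under 0.05. Immune cell markers rose in 2 of 19, against 1.71% of all genes. They were Ptprc at 1.83 ± 0.19 (adjusted p = 0.000714) and Lyz2 at 2.16 ± 0.41 (adjusted p = 0.0302).

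**Figure D4:**
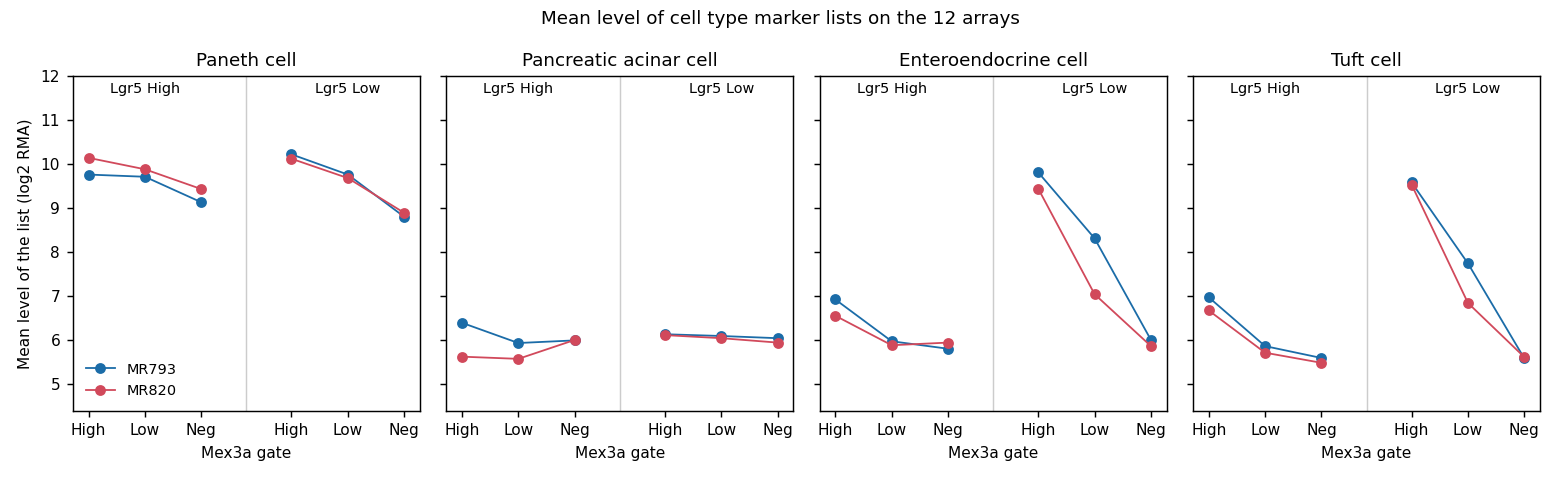
Mean log2 RMA level of the Paneth, pancreatic acinar, enteroendocrine and tuft cell lists (y axis) on each array of the 6 populations (x axis), members left out, with 1 point per array. The Paneth list is lowest in the Mex3a Neg populations of both Lgr5 gates, and the enteroendocrine and tuft lists peak at 9.82 and 9.59 in Mex3a High Lgr5 Low cells.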

How the data were processed

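RNA of 12 mouse small intestine samples was measured on Affymetrix arrays. The authors deposited log2 values per probe set produced by RMA per the submitters' processing notes; its version, settings and the array's genome build were not given in the sources used here. Of 45141 probe sets, 28898 name 1 gene in the probe table, 551 several, and 15692 not listed there were not analysed here. Of the single-gene sets 28689 matched a mouse gene table by identifier. Each gene was read from its brightest such probe set by mean, giving 17097 genes. limma 3.58.1 (R 4.3.3) fitted the 6 population means with no block, and eBayes used a trend of variance on mean (residual degrees of freedom 6, prior 3.44). Benjamini-Hochberg adjustment ran over all genes, with calls under 0.05, and the fit was tested on simulated data. The biological replicate of the labels pairs the populations: replicate differences correlated over 0.1 in 14 of 15 pairs of populations (lowest -0.115, median 0.382). Without Mex3a High Lgr5 High, all 10 pairs lay at 0.374 to 0.566. Values with the replicate block are therefore given where a call changes. Alternatives were the replicate or strip as a block, both, quantile normalization or median centring again, the most variable probe set, a filter on low levels, no trend, array weights, Lgr5 Low arrays only and each array left out. The test of every probe set was chosen after seeing the data. The members and gene lists were chosen with earlier results of these data known. Genes named are the members and the 5 genes with the highest r to each. From the lists, up to 4 called genes by smallest p were named, or up to 2 where none is called. This rule was not followed for every list, and no gene was named by it from the enteroendocrine, goblet, enterocyte and intestinal stem cell lists. Lipg, Cel, Lipf, the phospholipases Pla2g1b, Pla2g5 and Pla2g10, the Paneth markers that were not called, and the acinar genes were named after their values were seen.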

Additional observations from a re-analysis of the deposited data

Results flagged for a closer look

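The change between Mex3a High and Neg cells differed between the Lgr5 gates for 2 of the genes closest to the members. Gfra3, close to Pla2g2f, changed by 3.15 in Lgr5 Low and by 0.93 in Lgr5 High cells, a difference of 2.22. Itln1, close to Clps and Pnliprp2, changed by 2.95 and 1.20, a difference of 1.75. Both passed limma's test of the difference over all genes, but they were chosen for following the members over the same 12 arrays, so that test repeats the choice and supports nothing further; its p-values are not given.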

How the results depend on the processing

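The Mex3a High against Neg calls of Clps (3.10 to 4.44 with an array left out), Pnliprp2 (3.74 to 4.86) and Pla2g2f (3.61 to 3.83) held under each alternative run. For Mex3a High against Low, Clps (1.66) was also called with the replicate block (adjusted p = 0.0117) and with both blocks (0.0348), and Pnliprp2 (1.92) with the replicate block (0.0124), the strip block (0.0102), both (0.0201) and array weights (0.0243); with an array left out they spanned 0.99 to 2.33 and 1.37 to 2.48, and Pnliprp2 was called without either Mex3a High Lgr5 High array (0.0461 and 0.0466). Pla2g2f spanned 1.85 to 2.11. Pnliprp1 spanned -0.16 to 0.04 and changed sign, to 0.04, when MR793's array of Mex3a Low Lgr5 Low was left out; it has no value under the filter on low levels, which removes it. For Mex3a Low against Neg, the replicate block called Clps (2.11) and Pnliprp2 (2.38), both at 0.0236, the strip block Pnliprp2 (2.90; 0.0132) and Pla2g2f (1.86; 0.0322), and array weights (1.74; 0.00375) and the Lgr5 Low arrays alone (1.74; 0.0381) Pla2g2f; Pla2g2f spanned 1.61 to 1.87 with an array left out, called without either Mex3a High Lgr5 High array. Genes called numbered 295, 152 and 8 in the 3 contrasts. Array weights gave 930, 461 and 30, the Lgr5 Low arrays alone 533 in the first, and in the last the strip block gave 20, both blocks 2 and quantile normalization 3; with an array left out they ran from 165 to 907, 49 to 420 and 0 to 18. With the replicate block they were 347, 168 and 11. Lipid genes called, 3 in the first contrast, became 1 with the filter on low levels (1 to 4 with an array left out); the 2 of the second became 1 with the replicate block, both blocks or no trend, 0 with the filter and 4 with array weights (0 to 4 with an array left out). The cause of these moves was not tested. Array signal limits Pnliprp1, which lay below the array medians.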
